A study of Homo sapiens with 8 samples.

Results

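The 8 genes described here encode alpha and beta tubulins, the subunits of microtubules: the alpha isotypes TUBA1A, TUBA1B and TUBA1C and the beta isotypes TUBB, TUBB2A, TUBB3, TUBB4B and TUBB6. They were taken by gene name from the 12109 transcript rows of the authors' deposited table of translation efficiency, where each of the 8 has 1 row. The study used human hepatic stellate cells, labelled as a cell line and cultured in DMEM with serum, which received either a control silencing RNA (dsi-control, genotype WT) or one against LARP6 (dsiLARP6, genotype LARP6 kd). LARP6 is a protein of the La-related family and is known for binding the messages of type I collagen. Both conditions were measured by RNA-seq and by ribosome profiling, which sequences the RNA fragments that ribosomes shield from nuclease, in 4 groups of 2 libraries. Translation efficiency is the amount of footprints relative to RNA.

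An alpha and a beta tubulin pair into the dimer from which microtubules are built, and cells carry several isotypes of each that differ mostly in their acidic C-terminal tails. Tubulin messages are known for autoregulation during translation: when free dimers are in excess, TTC5 binds the first residues of tubulin chains as they leave the ribosome and, through SCAPER and the CCR4-NOT complex, has the message deadenylated and degraded. Because the signal is read on the ribosome, the start of the coding sequence is the part of a tubulin message on which this control depends.

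That start is shown because this control depends on it. The 8 genes were chosen by name as tubulins under this control, so a start in common follows from the choice. Each line gives the first 30 coding bases, 5′ to 3′, of the transcript in the table (GENCODE release 29 on GRCh38), with the first 4 codons in capitals. They encode methionine, arginine and glutamate, followed by cysteine in alpha and isoleucine in beta tubulins.
TUBA1A: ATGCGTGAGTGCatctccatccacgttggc
TUBA1B: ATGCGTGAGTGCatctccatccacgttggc
TUBA1C: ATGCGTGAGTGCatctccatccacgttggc
TUBB: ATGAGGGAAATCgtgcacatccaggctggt
TUBB2A: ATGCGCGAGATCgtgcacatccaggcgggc
TUBB3: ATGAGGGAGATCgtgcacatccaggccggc
TUBB4B: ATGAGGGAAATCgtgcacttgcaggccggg
TUBB6: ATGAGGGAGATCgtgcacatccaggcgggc

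Of 10738 rows with an annotated coding sequence, 9 (0.0838%) began with codons for these 4 residues in either form. They were the 8 genes above and TUBA4A, a further alpha tubulin. Since the search used the start of tubulins, that it found the 8 was fixed in advance. The 3 alpha messages had the same 30 bases. The beta messages used AGG or CGC for arginine and GAA or GAG for glutamate. TUBB and TUBB4B had the same first 12 bases, as did TUBB3 and TUBB6, but no 2 of the 5 were identical over the 30 bases.

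Over the whole coding sequence TUBA1A and TUBA1B were 97.2% identical, and the alpha pairs ranged from 95.9% to 97.2%. The 10 beta pairs ranged from 81.0% to 87.7%, and alpha against beta from 55.4% to 57.4%. All 8 transcripts have 4 exons and between 444 and 451 codons before the stop.

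The genes lie on 5 chromosomes (GRCh38). The alpha genes sit close together on chromosome 12, with TUBA1B at 49127782 to 49131395, TUBA1A at 49184796 to 49189324 and TUBA1C at 49264907 to 49274603. TUBB (30720201 to 30725426) and TUBB2A (3153669 to 3157526) are on chromosome 6. TUBB3 is on chromosome 16 (89923279 to 89936097), TUBB4B on chromosome 9 (137241213 to 137243707) and TUBB6 on chromosome 18 (12308059 to 12326619). These spans are of the matched protein-coding transcripts.

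Before the values, the limits that all of them share are given once. The authors' deposited table carries no value per library, so neither a spread between replicates nor a sequencing depth stands beside a value, and its precision rests on the authors' p-value. The labels do not say that the replicates were separate cultures, so those p-values may measure only technical spread. LARP6 abundance was not analysed here, so the knockdown itself was not checked. Of 11 stellate cell markers 9 had a row, among them COL1A1, ACTA2 and PDGFRB, while DES and LRAT had none. Rows were also listed for 2 of 5 hepatocyte, 1 of 4 endothelial, 2 of 4 leukocyte and 2 of 3 biliary markers, without ALB, PECAM1, PTPRC or EPCAM. A row shows that a transcript was measured, not how much of it there was.

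After LARP6 knockdown, the translation efficiency of 1 of the 8 tubulins rose, that of TUBB4B. Of the 8 log2 changes in the authors' deposited table, 7 lay above 0, with TUBA1B the exception, and the median was 0.39. Over all 12109 rows of the authors' deposited table the median was 0.02 and 50.8% lay above 0. An adjusted p of 0.05 was passed by 2.2% of these rows in the authors' deposited table, 1.07% as higher and 1.12% as lower; of the 8 tubulins, 0 were lower past that threshold and 3 had an unadjusted p under 0.05, all of them higher. With 8 genes, a single call does not set the family apart from that background.

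TUBB4B, the class IVb beta tubulin found in most tissues, was 1.69-fold higher in the knockdown according to the authors' deposited table, where its log2 change is 0.76, its p 0.000878 and its adjusted p 0.0417. The first of the 2 estimates in the authors' deposited table has a p of 1.55e-05 for the same log2 change of 0.76, and the final p is the larger one, from the second estimate. The call was close to the threshold and was not made at an adjusted p of 0.01. With the p-values of 1 estimate of the authors' deposited table adjusted by Benjamini-Hochberg, TUBB4B had an adjusted p of 0.00108 by the first, where 2.17% of all rows were called higher, and 0.0353 by the second, where 1.49% were. The final p is the larger of the 2 in every row, so neither of these could have exceeded the final adjusted p.

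TUBA1C, a widely expressed alpha tubulin, has the largest log2 change of the family in the authors' deposited table, 0.97, with a p of 0.0156 and an adjusted p of 0.279. By the first estimate of the authors' deposited table alone it passed, with an adjusted p of 0.027. TUBB6, the class V beta tubulin, is listed by the authors' deposited table at a log2 change of 0.41, with a p of 0.0177 and an adjusted p of 0.295. Together with TUBB4B these were the 3 tubulins with an unadjusted p under 0.05, where 5.46% of all rows of the authors' deposited table were higher at that level.

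The other 5 tubulins had p-values between 0.202 and 0.697 in the authors' deposited table. TUBB2A, a class II beta tubulin, has the second largest log2 change of the 8 in the authors' deposited table, 0.86, but a p of 0.334. That change was larger than the one of TUBB4B, whose p was far smaller, so the size of a change does not rank these genes by how well it was measured. TUBB3, the class III beta tubulin best known as a neuronal marker, had a log2 change of 0.37 (p = 0.202), and TUBB, the class I beta tubulin made in nearly all cells, one of 0.23 (p = 0.548), in the authors' deposited table. Among the alpha tubulins, the log2 change was 0.15 for TUBA1A (p = 0.697) and −0.42 for TUBA1B (p = 0.541) in the authors' deposited table. The 3 alpha genes thus spread from −0.42 to 0.97, and the 5 beta genes from 0.23 to 0.86. The plot of changes by gene places the one call among its relatives.

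**Figure D1:**
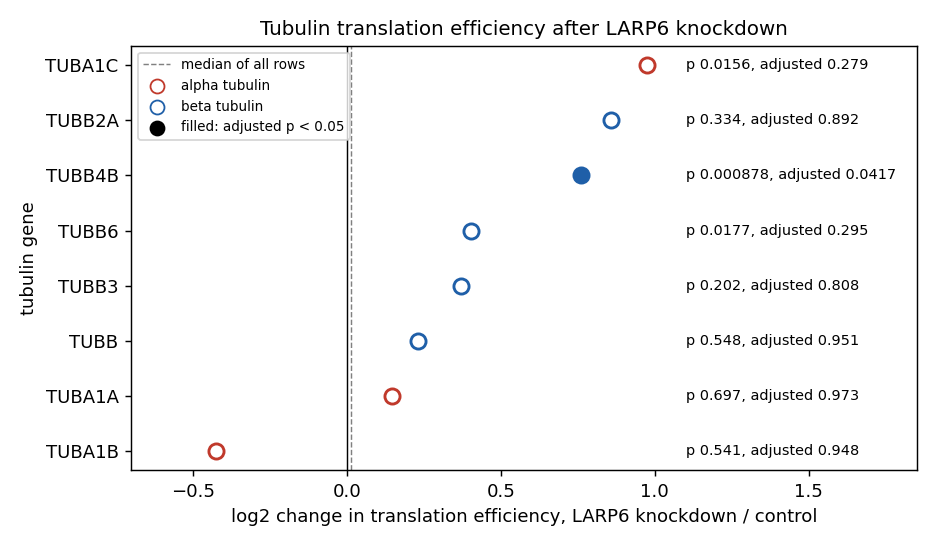
Final log2 change in translation efficiency (x axis, LARP6 knockdown over control, authors' deposited table) for each of the 8 tubulin genes (y axis), with the deposited p and adjusted p at the right; red is alpha, blue is beta, a filled point passed an adjusted p of 0.05 and the dashed line is the median of all rows. TUBB4B at 0.76 is the filled point, and TUBA1B at −0.42 is the one point below 0.

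The level of translation efficiency, as distinct from its change, was low for the whole family. In the authors' deposited table the knockdown log2 efficiency of all 8 genes lay below the table's median of 0.0078, with a family median of −2.02. The control levels, obtained by subtracting the second estimate's log2 change from the knockdown level, also lay below the control median in 8 of 8 genes. In order, the knockdown log2 efficiency was −0.96 for TUBB3, −0.99 for TUBB6 and −1.68 for TUBB4B in the authors' deposited table. It was −1.99 for TUBB2A, −2.04 for TUBA1A and −2.28 for TUBA1C in the authors' deposited table. The lowest levels in the authors' deposited table were −3.97 for TUBB and −5.64 for TUBA1B, which put TUBA1B in the lowest 0.124% and TUBB in the lowest 0.471% of rows.

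Derived control log2 efficiencies were −1.33 for TUBB3, −1.40 for TUBB6, −2.44 for TUBB4B and −2.85 for TUBB2A. Those of the alpha genes were −2.19 for TUBA1A, −3.25 for TUBA1C and −5.22 for TUBA1B, and that of TUBB was −4.20. TUBB3 and TUBB6 led and TUBB and TUBA1B came last in both conditions, while TUBA1A lay above TUBB4B, TUBB2A and TUBA1C in the control and below TUBB4B and TUBB2A in the knockdown. Without values per library it cannot be said which neighbours in this order differ beyond their spread.

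**Figure D2:**
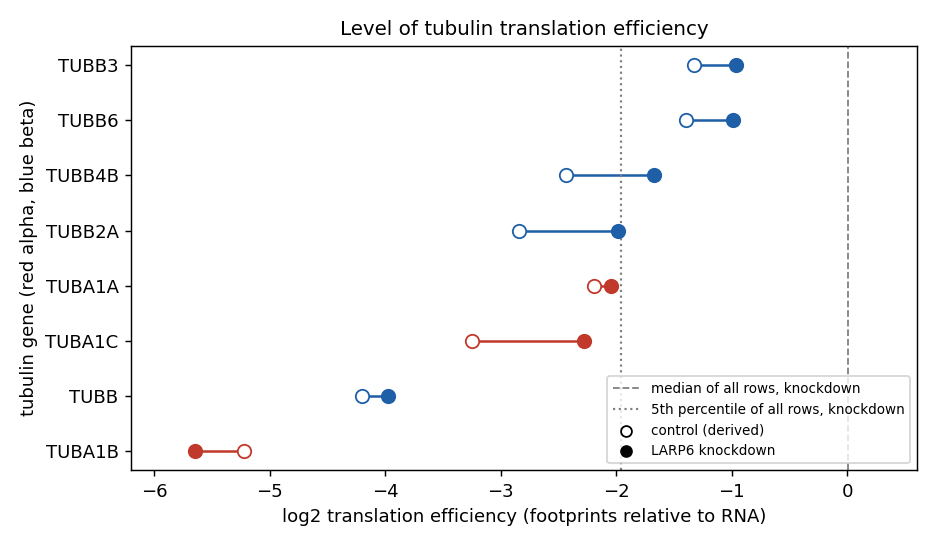
Log2 translation efficiency (x axis, footprints relative to RNA) of each tubulin gene (y axis, red alpha, blue beta) in the control (open, derived) and the LARP6 knockdown (filled, authors' deposited table); the dashed and dotted lines mark the median and the 5th percentile of all rows in the knockdown. All 8 genes lie left of the median, and TUBA1B lies farthest left at −5.64 in the knockdown.

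How far footprints of single tubulins can be assigned was described from sequence. Windows of 30 bases stood in for a footprint; the sources used here do not give the study's size range. Each coding sequence was divided into all its windows of 30 bases, and a window was counted as shared when the same bases occur in an annotated transcript of another locus, pseudogenes included. The share was 86.8% for TUBA1B, 84.0% for TUBB2A, 73.9% for TUBA1A, 73.4% for TUBA1C and 57.2% for TUBB. It was 27.8% for TUBB3, 25.3% for TUBB4B and 10.6% for TUBB6. The 5 genes with the higher shares were also the 5 with the lower knockdown efficiencies in the authors' deposited table.

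The partners differed by gene. TUBA1B had 61.0% of its windows in common with TUBA1A, 60.6% with TUBA1C and 43.7% with the processed pseudogene TUBAP2. TUBB shared 48.1% of its windows with the pseudogene TUBBP1, and TUBB2A shared 76.5% with its neighbour in the family TUBB2B. That gene was looked for but had no row in the authors' deposited table. For TUBB4B the closest partner, the pseudogene TUBBP5, held 10.4% of the windows, and for TUBB6 it was TUBB3 and a transcript overlapping it, with 6.25% each. TUBB3, TUBB4B and TUBB6 therefore had most of their coding windows to themselves, and the other 5 genes did not.

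Over all coding rows, the 8 tubulins included, each bin with shared windows had a lower median than the rows without. In the authors' deposited table the median knockdown log2 efficiency was 0.15 for the 7732 coding rows without a shared window. For the 1852 rows with over 0% to 10% shared it was −0.25, with the middle 50% from −0.87 to 0.39. It was −0.73 for the 568 rows with over 10% to 25% shared. It was −1.46 for the 389 rows with over 25% to 50% shared, −1.98 for the 152 rows with over 50% to 75% and −1.77 for the 43 rows with over 75% in the authors' deposited table, so it did not fall further in the last bin. Each in its own bin, the levels of TUBA1A, TUBA1C, TUBB2A, TUBB3, TUBB4B and TUBB6 lay between −0.29 and 0.50 relative to the bin's median. TUBB stood at −1.99 relative to its bin's median, with 13.8% of the 152 rows lower. TUBA1B stood at −3.88 relative to the median of its bin of 43 rows and was the lowest of them. Over the 8 tubulins, Pearson's r of level against share was −0.63 and Spearman's rho −0.69, and over 10736 coding rows they were −0.38 and −0.31. These are descriptions over genes that share libraries and sequence. The sources used here do not say how reads that map to several places were counted, and the part of read assignment in these levels was not tested.

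**Figure D3:**
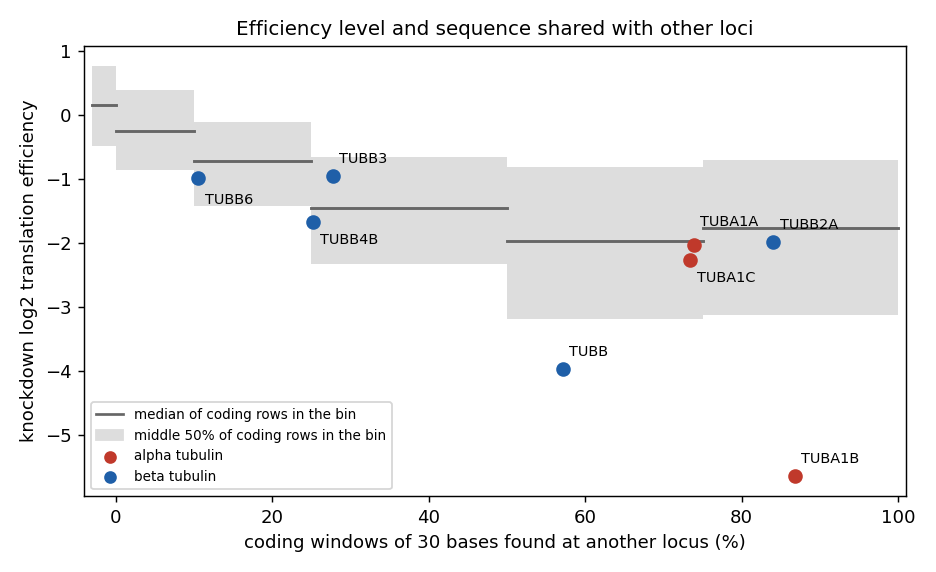
Knockdown log2 translation efficiency (y axis, authors' deposited table) against the percentage of 30-base coding windows that also occur at another locus (x axis); points are the 8 tubulins (red alpha, blue beta), and grey lines and bands are the median and the middle 50% of all coding rows in each bin of the x axis (the bar left of 0 is the rows with no shared window). TUBB and TUBA1B fall below the grey band of their bins, and the other 6 lie inside it.

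The change after knockdown was set beside the shared windows as well. Pearson's r between change and share over the 8 genes was −0.19 and Spearman's rho −0.29. The median log2 change in the authors' deposited table was 0.01 for coding rows without a shared window, 0.13 in the bin of TUBB4B and TUBB3 and 0.02 in that of TUBA1A, TUBA1C and TUBB. In the bin of TUBB4B 2.83% of rows were called, close to the 2.2% over the whole of the authors' deposited table. Of the 43 rows with over 75% of windows shared 0 were called in the authors' deposited table, and of the 152 with over 50% to 75% shared 1 was.

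Of 15 further tubulin names listed, 5 had a row, 0 were called and 0 had an unadjusted p under 0.05. Calls made up 2.2% of all rows in the authors' deposited table and such p-values 10.3%. Counts of 0 among 5 rows therefore do not set these genes apart from that background. TUBA4A, the alpha tubulin with the same 4-codon start, stands in the authors' deposited table at a log2 change of 0.71, with an adjusted p of 0.801. The 2 gamma tubulins, which nucleate microtubules, had log2 changes of 0.41 for TUBG1 and −0.73 for TUBG2 in the authors' deposited table, with adjusted p-values of 0.922 and 0.9. The centriolar delta and epsilon tubulins TUBD1 and TUBE1, which lack the 4-codon start, had log2 changes of 0.18 and 0.23 with adjusted p-values of 0.99 and 0.976 in the authors' deposited table.

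None of the 14 measured genes of the autoregulation list was called, and 0 had an unadjusted p under 0.05, in the authors' deposited table. Over all its rows 2.2% were called and 10.3% had such a p, so counts of 0 among 14 lie near that background. The list holds TTC5, SCAPER and CCR4-NOT genes, and also NACA and BTF3, which belong to neither. TTC5, which reads the tubulin start, is given by the authors' deposited table a log2 change of −0.16 and an adjusted p of 0.974. Its partner SCAPER had a log2 change of 1.19 with a p of 0.168, and CNOT11, the CCR4-NOT subunit that SCAPER contacts, one of −0.05 with a p of 0.87, in the authors' deposited table. The median of the list was −0.05.

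None of the tubulin folding genes was called (2.2% of all rows were). New tubulin chains are folded by the chaperonin CCT, which receives them from prefoldin, and are assembled into dimers by the tubulin cofactors. Of 22 rows of this list 18 lay above 0 (50.8% of all rows), with a median of 0.17, and 3 had an unadjusted p under 0.05, all higher (5.46% of all rows), in the authors' deposited table. All 8 CCT subunits lay above 0 in the authors' deposited table, from 0.02 for CCT8 to 0.87 for CCT6A. The smallest adjusted p among them, 0.0883, was that of CCT2, whose log2 change in the authors' deposited table is 0.51. The 7 cofactor rows include TBCEL and more than 1 row of TBCE, so rows are not separate genes here. The 22 rows of the list are of 21 genes. Of the 7 cofactor rows 5 lay above 0 in the authors' deposited table, with a median of 0.16. The exceptions were TBCA and TBCC, with log2 changes of −0.95 and −0.62 and adjusted p-values of 0.866 and 0.671.

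Lists of microtubule-binding proteins, tubulin-modifying enzymes, motors and gamma-tubulin complexes had no call either (2.2% of all rows were called). Of 29 microtubule-binding proteins 6 had an unadjusted p under 0.05 in the authors' deposited table, 2 higher and 4 lower, with a list median of −0.02. Such a p was reached by 10.3% of all rows of the authors' deposited table, 5.46% higher and 4.83% lower. STMN1, stathmin, which binds free tubulin dimers, had a log2 change of 0.87 per the authors' deposited table (adjusted p = 0.0743), and the lattice-binding MAP1A and MAP1B had −0.61 and −0.36 (adjusted p = 0.0631 and 0.0897). Among 15 tubulin-modifying enzymes the one with an unadjusted p under 0.05 was the deacetylase HDAC6, which the authors' deposited table lists at a log2 change of −1.28 and an adjusted p of 0.45. The motor list, of 39 genes of motors, dynactin and dynein regulators, had a median of 0.03 and 1 unadjusted p under 0.05. That was the dynein intermediate chain DYNC1I2, which the authors' deposited table lists at 2.10 on the log2 scale (adjusted p = 0.431). The list of gamma-tubulin complexes also holds HAUS genes, NEDD1, AKAP9, CDK5RAP2 and PCNT. Its 18 measured genes had a median of 0.22 and 0 rows with an unadjusted p under 0.05 in the authors' deposited table.

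**Figure D4:**
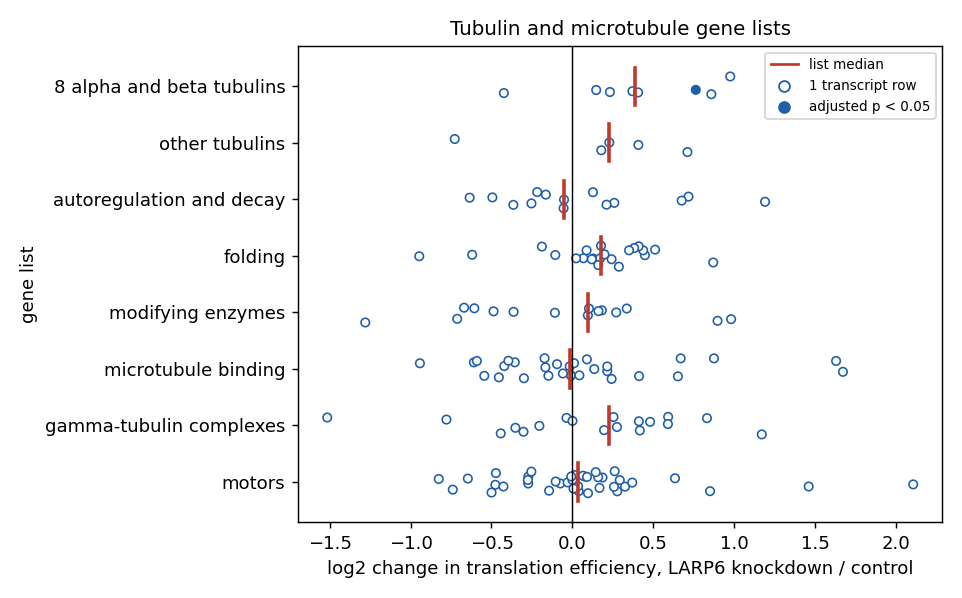
Final log2 change in translation efficiency (x axis, authors' deposited table) for the 8 tubulins and 7 further gene lists (y axis); each point is 1 transcript row, filled where the adjusted p was under 0.05, and red bars are list medians. The one filled point is TUBB4B, and the list medians run from −0.05 for autoregulation genes to 0.39 for the 8 tubulins.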

How the data were processed

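Ribosome profiling and RNA-seq libraries (4 groups of 2) of control and LARP6 knockdown stellate cells were compared by the authors. Per the file headers, the deposited values are log2 changes of translation efficiency from 2 estimates and a final one, a knockdown log2 efficiency, and p-values. The deposited final p-value was the larger of the 2 in 12109 rows. Bowtie and cutadapt, with the builds GRCh38 and hg38, are named in the submitters' processing notes; the sources used here do not give the program that compared efficiencies or the handling of reads that map to several places. No counts per library were analysed here, so no model was fitted.

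Here, rows were matched by transcript digits to GENCODE release 29 (11581 matched, 528 not), and shared coding windows were counted on the sense strand of all annotated transcripts, treating overlapping same-strand genes as 1 locus. Python 3.11.15, scipy 1.17.1 and Biopython 1.88 (global alignment) were used; adjustment and window counting were tested on simulated p-values and by string comparison. The threshold was an adjusted p of 0.05. The members and lists were chosen with earlier results of these data known. Named with values were the 8 members, measured further tubulins, TTC5, SCAPER and CNOT11, and up to 4 called genes of each list. Since none was called, other genes were chosen after their values were seen. These were CCT2, CCT6A, CCT8, TBCA, TBCC, STMN1, MAP1A, MAP1B, MAP2, MAP4, CLASP1, HDAC6, DYNC1I2 and the pseudogenes. A stellate cell marker of the list is not reported here.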

Additional observations from a re-analysis of the deposited data

How the results depend on the processing

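No paired analysis was possible because the table gives no value per library, and for the same reason no library could be left out. Of the 8 tubulins, 0 were called at an adjusted p of 0.01 or with a minimum of 2-fold, and 2 (TUBB4B and TUBA1C) by the first estimate alone. TUBB4B was also called by the second estimate alone, and at a threshold of 0.1. Both had to follow from its main call. The call by the second estimate did so because the final p is the larger of the 2 in every row. The call at 0.1 did so because an adjusted p under 0.05 is also under 0.1. These calls add no separate evidence for the main one. The direction of each of the 8 changes was the same under both estimates. Over the whole table of 12109 rows the 266 calls became 340 at a threshold of 0.1, 457 by the first estimate alone and 110 with a minimum of 2-fold. In the further tubulin and microtubule lists the 0 calls became 4 at a threshold of 0.1 (CCT2, MAP1A, MAP1B and STMN1). By the first estimate alone they became 4 (DYNC1I2, MAP1A, MAP1B and STMN1). CCT2 is from a list of 22 rows, DYNC1I2 from one of 39 and the others from one of 29. Calls over the whole table rose under both settings too, and whether a list differed from it was not tested. Over the 8 tubulins together, 54.9% of windows of 30 bases were shared, 57.1% of windows of 28 bases and 51.4% of windows of 34 bases. Depth is unknown, so which of the uncalled tubulins were too shallow to be called cannot be said.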

Other observations

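Processed pseudogenes of tubulins, copies of the messages without introns, had rows of their own, and 0 of 4 were called in the authors' deposited table (2.2% of all rows). TUBAP2, which holds many of the windows of the 3 alpha genes, had a log2 change of 1.31 (p = 0.00148, adjusted p = 0.0615) and a knockdown log2 efficiency of 1.15 in the authors' deposited table. TUBBP1, the closest copy of TUBB, had a log2 change of 0.93 (adjusted p = 0.879) and a knockdown log2 efficiency of −4.49, near that of TUBB, in the authors' deposited table. TUBBP6 and TUBG1P stood at the opposite end, with knockdown log2 efficiencies of 6.85 and 5.12 in the authors' deposited table. For TUBBP6 the 2 estimates in the authors' deposited table had log2 changes of 1.80 and 1.92 but p-values of 0.448 and 0.000201. Footprints per RNA of a pseudogene is not a translation rate, and its reads cannot be told apart from those of its parent gene where the sequence is shared.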
